A study of Homo sapiens with 8 samples.

Results

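The loci of 4 Hedgehog pathway genes, PTCH1, GLI2, GLI3 and GLI1, were followed while SMARCB1 was restored in G401 cells. The assay was ATAC-seq, where a transposase inserts sequencing tags wherever the DNA is accessible. A locus was taken as the hg19 gene span plus 50 kb on each side, a rule that uses position alone, and every peak of the 4 deposited lists that overlapped it was counted. This gave 168 peaks of 411408, which joined into 61 regions of 146099 when overlapping peaks of any list were merged. PTCH1 held 18 regions, GLI2 12, GLI3 12 and GLI1 19. The hg19 gene spans were chr9:98205264-98279247 for PTCH1 and chr7:42000548-42276618 for GLI3, both on the minus strand, and chr2:121493199-121750229 for GLI2 and chr12:57853918-57866047 for GLI1, both on the plus strand. Regions are placed against the gene span only, since exons and introns of this build were not annotated here.

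In the Hedgehog pathway, a secreted ligand binds the receptor PTCH1, which otherwise holds back the membrane protein SMO, and the signal ends at the zinc finger transcription factors of the GLI family. GLI2 is the main activator that starts the response, GLI3 acts largely as a repressor after partial cleavage, and GLI1 is an activator. GLI1 and PTCH1 are themselves classical targets of GLI factors, and PTCH1 protein feeds back on the pathway. SMARCB1, also called SNF5, has been reported to bind GLI1 and to restrain it in rhabdoid tumour cells.

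G401 is an established kidney rhabdoid tumour line without SMARCB1, which is part of the SWI/SNF complex that moves and evicts nucleosomes. The stable line used here carries a SMARCB1 inducible by doxycycline. The groups were cells given 1 µg/ml doxycycline for 1, 3 or 7 days, labelled SMARCB1 +/+, and cells of day 0, labelled SMARCB1 -/-, all in medium with tetracycline-free serum. Among these groups none had doxycycline without SMARCB1, so the drug and the protein cannot be told apart, and the sources used here do not say whether the line is 1 clone. Per the labels, each day had 2 replicates of 100000 cells, with an average of about 20 M reads each. The values used here come as a single peak list for each day, and the return of SMARCB1 itself was not checked. No difference between days therefore has a replicate error, a test or a p-value, and ratios are given with 95% intervals that cover counting error only. The list whose name gives no day was taken as day 0 by elimination. The lists held 80744, 109876, 117606 and 103182 peaks on days 0, 1, 3 and 7, at genome-wide backgrounds of 6.34, 6.04, 6.73 and 6.10 reads per position. Summits below are reads at the highest point of a peak, and a scaled summit is that number divided by the genome-wide background of its list. Fold is the authors' ratio of the summit to its local background.

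The sequences upstream of annotated starts are shown for the genes in the RefSeq promoter table (GRCh38.p14), since peaks lay at the 5′ ends of both. The table lists 5 starts for PTCH1 and 2 for GLI2. Each line gives the 250 bases before a start, 5′ to 3′ on the strand of the gene. Capitals mark a match to the GLI motif GACCACCCA, which here is read from the opposite strand as TGGGTGGTC.
PTCH1 start at the 5′ end of the gene, chr9:95516972-95517221, minus strand: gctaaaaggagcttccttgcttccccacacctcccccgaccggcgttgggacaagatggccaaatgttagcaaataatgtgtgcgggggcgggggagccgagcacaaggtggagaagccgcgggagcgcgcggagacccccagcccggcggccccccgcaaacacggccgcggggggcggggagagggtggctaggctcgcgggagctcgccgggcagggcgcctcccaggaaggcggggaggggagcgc
PTCH1 start 7.71 kb into the gene, chr9:95509267-95509516, minus strand: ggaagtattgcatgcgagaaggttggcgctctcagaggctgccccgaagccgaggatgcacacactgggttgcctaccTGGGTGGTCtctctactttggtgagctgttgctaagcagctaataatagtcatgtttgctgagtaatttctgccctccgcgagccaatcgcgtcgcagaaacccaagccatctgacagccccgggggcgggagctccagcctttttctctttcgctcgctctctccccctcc
GLI2 start at the 5′ end of the gene, chr2:120735618-120735867, plus strand: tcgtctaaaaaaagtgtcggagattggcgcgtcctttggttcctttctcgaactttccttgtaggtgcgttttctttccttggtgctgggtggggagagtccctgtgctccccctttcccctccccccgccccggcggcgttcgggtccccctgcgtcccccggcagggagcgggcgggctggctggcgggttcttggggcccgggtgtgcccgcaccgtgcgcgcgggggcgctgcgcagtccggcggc

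The PTCH1 start 7.71 kb into the gene had the only GLI match among the 7 listed starts, 172 bases before the start. On either strand, 0.236% of 35116 promoter windows in the table (250 bases before to 50 after a start) hold that motif. The AP-1 motif TGAGTCA, searched on both strands because AP1 is in the title of the study, occurs in 4.95% of the windows. It was found at the GLI2 start 56.4 kb into the gene, and not in the windows of the other 6 starts. The 250 bases before the 5′-most starts were rich in G and C, at 71.6% for PTCH1 and 68.8% for GLI2, with 25 and 26 CpG pairs. A match is a description of the letters and not a measured binding site. These positions are in GRCh38, and were not converted to the hg19 positions of the peaks. The gene lengths differ by 8 bases for PTCH1, by 245 bases for GLI2, by 354 bases for GLI1 and by 27249 bases for GLI3 between the RefSeq table and the hg19 spans.

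Over the 4 loci together, the time course was like that of all regions. The loci held 33, 45, 49 and 41 peaks on days 0, 1, 3 and 7. The induced days had 1.36, 1.48 and 1.24 times the day 0 number, against 1.36, 1.46 and 1.28 times over all peaks. Of the 61 regions, 24 (39.3%) had a peak on every day, against 41.6% of all merged regions. Regions gained, meaning a peak on days 1, 3 and 7 and none on day 0, numbered 8 (13.1%, 5.84 to 24.2), against 13.1% of all merged regions. Only 2 regions (3.28%) had a peak on day 0 alone, against 4.26% of all. Each of these shares was near that of all regions in the full lists. In lists of equal length 3 of 45 regions were gained (6.67%, against 9.68% of all). With a −log10 q of at least 5, 4 of 53 were gained (7.55%, against 13.4%).

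Day by day, the shares of new peaks in the full lists were also near those of all regions. Among regions with a peak on either day, 14 of 46 (30.4%) were new on day 1 against day 0, beside 33.1% of all regions. On day 3, 24 of 56 (42.9%) were new, beside 38.0%, and on day 7, 14 of 46 (30.4%), beside 31.0%. Peaks of day 0 with no counterpart numbered 2 of 46 on day 1 (4.35%, beside 8.66% of all), 8 of 56 on day 3 (14.3%, beside 9.06%) and 6 of 46 on day 7 (13.0%, beside 12.0%).

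The gained regions were spread unevenly over the 4 genes. PTCH1 had 7 gained regions of 18 (38.9%, exact Clopper-Pearson interval 17.3 to 64.3), GLI1 had 1 of 19 (5.26%, 0.133 to 26.0), and GLI2 and GLI3 had 0 of 12 each (interval up to 26.5%). These intervals treat regions as independent draws, and the difference between the genes was not tested. The PTCH1 count was lower in stricter lists. With each list cut to the same number of peaks, 2 of 13 PTCH1 regions (15.4%) were gained, against 9.68% of all regions. With a −log10 q of at least 5, 3 of 16 (18.8%) were gained, against 13.4% of all. None of the 8 gained regions reached a fold of 6 on any induced day (interval up to 36.9%), against 23.8% of all gained regions. The highest fold among those at PTCH1 was 5.91.

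**Figure D1:**
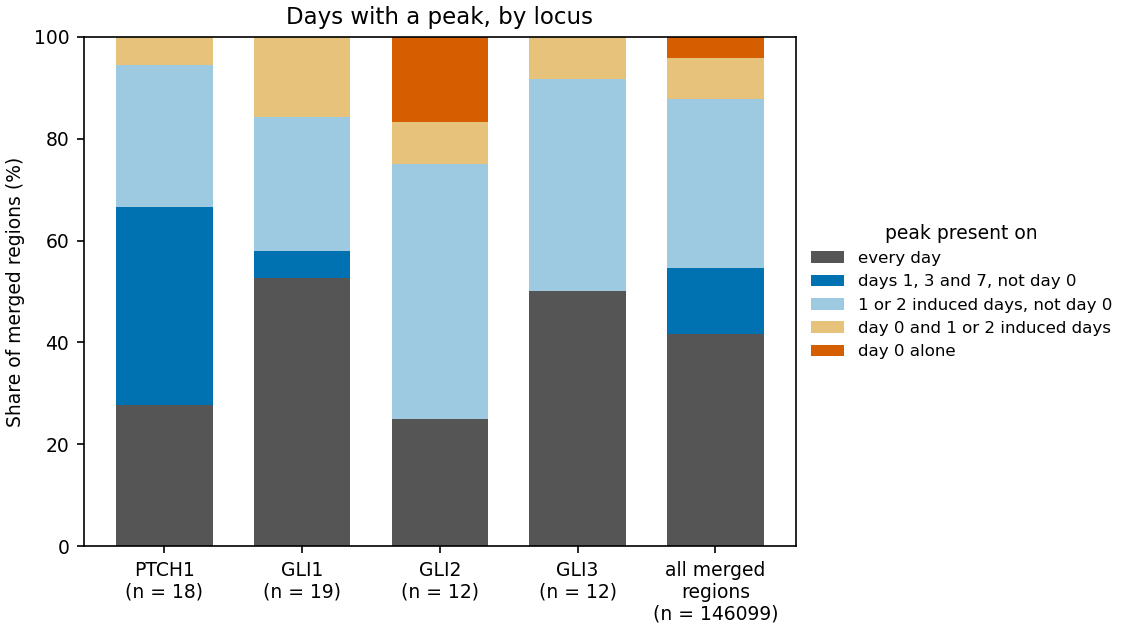
Share of merged regions (%) by the days on which they had a peak, for each of the 4 loci and for all 146099 merged regions. PTCH1 had 7 of 18 regions gained on all 3 induced days, GLI1 1 of 19, and GLI2 and GLI3 0 of 12 each.

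At PTCH1, the receptor gene, the length under peaks was 9.40 kb on day 1, 10.2 kb on day 3 and 9.09 kb on day 7, against 4.94 kb on day 0. These are ratios of 1.90, 2.06 and 1.84, while over all peaks the covered length was 1.35, 1.44 and 1.25 times that of day 0. The gained regions lay upstream of the gene, in its 5′ part, near its 3′ end and downstream. Most regions in the 5′ part of the gene were already called on day 0 and had similar summits throughout.

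The 5′ end of PTCH1 lies in a region called on every day, chr9:98278054-98279578. Its highest summits were 84, 85, 90 and 74 reads on days 0, 1, 3 and 7. Relative to day 0 the scaled summit was 1.06 on day 1 (0.776 to 1.45), 1.01 on day 3 (0.742 to 1.38) and 0.916 on day 7 (0.661 to 1.27). The day 0 and day 3 lists split it into 2 peaks and the day 1 and day 7 lists called 1. The peak over the 5′ end itself had 70 reads on day 0 and 90 on day 3, while the highest day 0 summit belonged to the other one. The comparison of highest summits therefore sets different positions side by side, and the local background at these summits was 5.45, 5.52, 3.59 and 3.28 times the genome-wide level on days 0, 1, 3 and 7. The fold, which carries that background, was 1.51 times that of day 0 on day 3 and 1.49 times on day 7 between these unlike positions. Between the peaks over the 5′ end, with folds of 3.62 on day 3, 3.57 on day 7 and 3.18 on day 0, it was 1.14 times on day 3 and 1.12 times on day 7. Their scaled summits were 1.21 times that of day 0 on day 3 (0.876 to 1.68) and 1.10 times on day 7 (0.782 to 1.55).

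The highest PTCH1 summit lay further into the gene, at chr9:98272900-98273889, centred 5.9 kb from the 5′ end, with 228, 238, 223 and 214 reads on days 0, 1, 3 and 7. By reads it stood above 98.5% of the day 0 list, and by fold above only 33.3%. The next region, chr9:98271376-98272040, covers 7.21 to 7.87 kb from the 5′ end. In the RefSeq table the start with the GLI match is 7.71 kb into the gene, but it was not placed in hg19. The summit of this region held 183 reads on days 0, 1 and 3 alike and 175 on day 7. Relative to day 0 this was 1.05 on day 1 (0.850 to 1.30), 0.943 on day 3 (0.764 to 1.16) and 0.994 on day 7 (0.804 to 1.23). A further region at chr9:98269962-98270540 held 168, 166, 149 and 161 reads. The downstream part of this block differed between lists. The region at chr9:98268886-98269702 joins 2 peaks that overlap only in part, and had none on days 3 and 7. The day 0 peak, 98269182-98269702, had 126 reads at 98269540. The day 1 peak, 98268886-98269337, had 109 reads at 98268994. The region chr9:98268115-98268492 had no day 0 peak and 103, 101 and 84 reads on days 1, 3 and 7.

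This block had a high local background, the level around a peak that the caller divides out. At the summit of chr9:98271376-98272040 it was 11.7, 12.0, 10.4 and 10.5 times the genome-wide level on days 0, 1, 3 and 7. The folds there were low, at 2.45, 2.51, 2.60 and 2.71. The gained region chr9:98268115-98268492 had folds of only 1.79, 1.81 and 1.66. The unlike day 0 and day 1 peaks of chr9:98268886-98269702 had 1.73 and 1.60. At a local background within 10% of that of the gained region, scaled to day 0, the lowest summit called anywhere in the day 0 list held 89 reads (1592 peaks compared). A day 0 summit under 89 reads could thus have gone uncalled there, and the part of the background in these calls was not tested.

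The other 6 gained regions of PTCH1 had local backgrounds under 3 times the genome-wide level. The one with the highest fold lay upstream of the gene at chr9:98284778-98285964, centred 6.1 kb before the 5′ end. It had 47, 101 and 66 reads on days 1, 3 and 7, with folds of 4.33, 5.91 and 5.84, and no day 0 peak. The scaled summit on day 3 was 1.93 times that of day 1 (1.35 to 2.79), and on day 7 it was 0.720 times that of day 3 (0.520 to 0.992). The summit lay at 98285187 on day 1 and at 98285337 on days 3 and 7, so the ratio of day 3 to day 1 compares different positions. At a like local background the lowest summit in the day 0 list held 31 reads (5952 peaks compared). A second upstream region at chr9:98296286-98296995, 17.4 kb before the 5′ end, had 20, 37 and 33 reads on days 1, 3 and 7, where the smallest summit of the day 1 list held 16. At a like local background the lowest summit in the day 0 list held 18 reads.

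At the 3′ end, chr9:98212504-98213409 lay inside the gene, 7.24 kb before its end, with 38, 66 and 43 reads on days 1, 3 and 7. Its scaled summit on day 3 was 1.56 times that of day 1 (1.03 to 2.39). These summits lay at different positions, 98212687 on day 1 and 98213038 on day 3. The region chr9:98204075-98205042 began 0.222 kb beyond the end of the gene and had 33, 45 and 50 reads. The highest summits of this region also differed in position, at 98204472, 98204890 and 98204417 on days 1, 3 and 7. Beside it, chr9:98202814-98203176 had 30 reads on day 1 and 54 on day 3, with no peak on day 7 or day 0. A pair of regions further downstream, chr9:98169468-98169878 and chr9:98168639-98169131, had 40, 41 and 24 reads and 22, 36 and 24 reads on days 1, 3 and 7. At a like local background, the lowest day 0 summit called anywhere held 21 reads for each of this pair. It held 30 reads for chr9:98212504-98213409 and 36 for chr9:98204075-98205042, which had 33 on day 1. These levels use the background of the day with the highest summit, and a lower day 0 summit could have gone uncalled. Day 3 was the highest day in 4 of the 7 gained regions of PTCH1 and in 4 of the 8 over all loci, against 58.5% of all gained regions. Of the 7 intervals for day 3 over day 1, 2 lay above 1, at chr9:98284778-98285964 and chr9:98212504-98213409. Both compare summits at different positions. Of those for day 7 over day 3, 1 lay below 1.

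**Figure D2:**
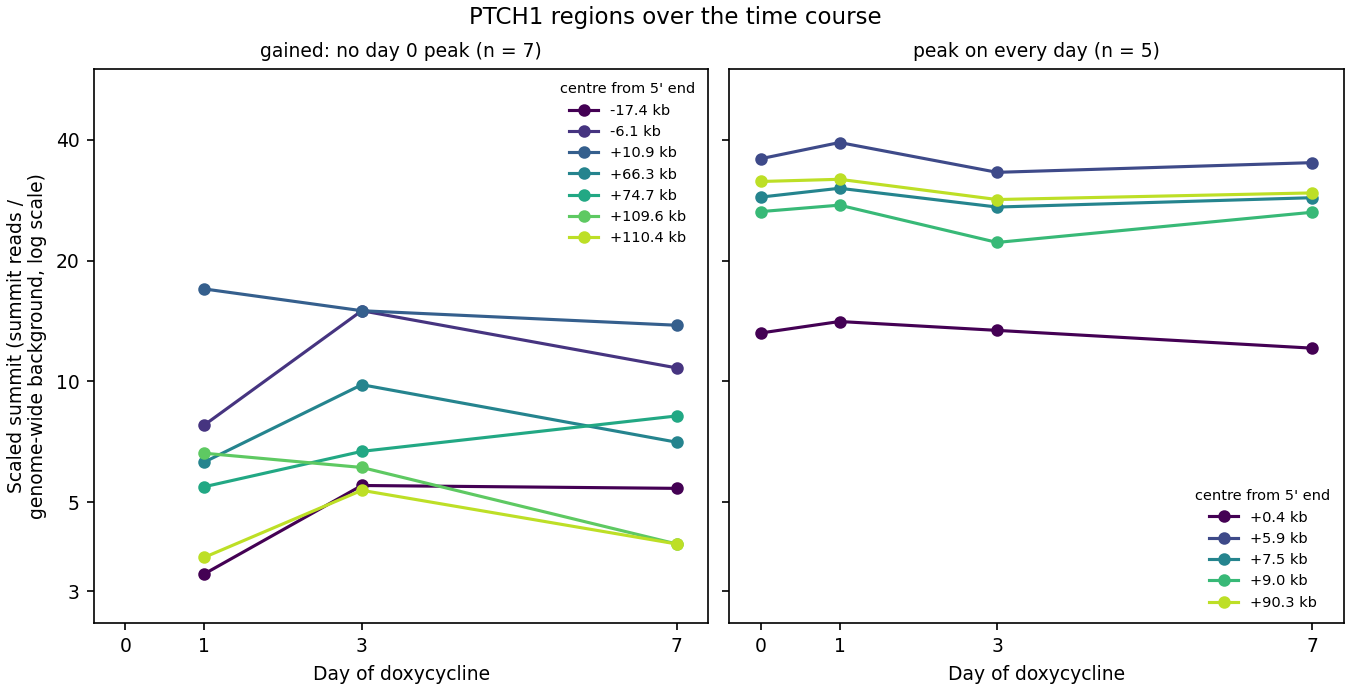
Scaled summits (multiples of the genome-wide background, log scale) of PTCH1 regions on days 0, 1, 3 and 7, with the 7 gained regions on the left and the 5 regions called on every day on the right. Each line is 1 region, named by the distance of its centre from the 5′ end. The upstream region at 6.1 kb before the 5′ end had 47, 101 and 66 reads on days 1, 3 and 7, while the every-day regions stayed between 0.836 and 1.10 of their day 0 summit.

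The PTCH1 region with the highest fold was called on every day. It lay downstream of the gene at chr9:98188285-98189707, 90.3 kb from the 5′ end, with 200, 193, 191 and 180 reads on days 0, 1, 3 and 7 and folds of 10.2, 10.1, 10.2 and 10.6. Relative to day 0 it was 1.01 on day 1 (0.827 to 1.24), 0.901 on day 3 (0.735 to 1.10) and 0.936 on day 7 (0.761 to 1.15). First seen on day 3 was chr9:98177712-98178181, with 22 reads on day 3 and 23 on day 7. The remaining 3 PTCH1 regions were inside the gene and called in 1 list each, with 28 reads in the day 1 list and 27 in the case of both found by the day 3 list.

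GLI2, the main activator, had a peak of similar height in each list at its 5′ end and sparse weak peaks along the gene. The 5′ region, chr2:121493151-121493975, begins 48 bp upstream of the 5′ end. It had 77, 83, 80 and 67 reads on days 0, 1, 3 and 7, at a local background 1.59 to 1.75 times the genome-wide level, and folds of 7.04, 7.27, 6.56 and 6.08. Relative to day 0 the summit was 1.13 on day 1 (0.820 to 1.56), 0.980 on day 3 (0.708 to 1.36) and 0.905 on day 7 (0.642 to 1.27). The highest fold was at an upstream region 39.8 kb before the 5′ end, chr2:121453021-121453723, with 80, 90, 90 and 75 reads and folds of 9.71, 11.6, 10.7 and 9.95. By fold it stood above 98.2% of the day 0 list, and by reads above 65.0%, the opposite order to the PTCH1 block.

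Within GLI2, a gene of 257 kb, only 1 further region was called on every day, chr2:121716195-121716687, with 34, 33, 39 and 28 reads. The other 9 regions of the window each held between 20 and 36 reads, with folds between 2.86 and 5.25. Day 0 alone had peaks at chr2:121444434-121444672, with 26 reads, and chr2:121642746-121642996, with 20. The region chr2:121614158-121614504, 121.1 kb into the gene, had 36 reads on day 1 and 34 on day 3. First seen on day 3, chr2:121461006-121461332 held 31 reads and had no peak on day 7. Regions seen on days 3 and 7 had 26 and 20 reads at chr2:121537570-121537802 and 25 and 33 at chr2:121693209-121693583. The smallest summits in the lists held 18, 16, 17 and 18 reads on days 0, 1, 3 and 7.

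GLI3, the repressor, had no strong peak at the 5′ end of its hg19 span. The RefSeq table gives a gene longer by 27249 bases, so distances here hold for that span end alone. Nearest to it was chr7:42276762-42276983, 144 bp upstream, called on day 1 alone with 18 reads. Inside the gene, 211 bp from the 5′ end, chr7:42276065-42276407 had 22 reads on day 0 and 20 on day 1, with folds of 3.13 and 2.98, and no peak on days 3 and 7. A region 4.6 kb into the gene, chr7:42271788-42272240, had 34 reads on day 3 and 23 on day 7 and no peak before. At all 3 the local background was equal to the genome-wide level. Upstream of GLI3 no list had a peak over 454 kb, from 42276984 to 42730656 on chromosome 7. Of 146075 gaps between neighbouring regions, 0.295% were at least as long, and the median gap was 6.62 kb.

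The 6 GLI3 regions called on every day lay mainly in the last part of the gene or beyond its 3′ end. The highest was chr7:41982363-41983244, downstream of the gene, with 81, 88, 92 and 71 reads on days 0, 1, 3 and 7 and folds of 7.65, 7.71, 8.09 and 6.82. Relative to day 0 it was 1.14 on day 1 (0.834 to 1.56), 1.07 on day 3 (0.786 to 1.46) and 0.911 on day 7 (0.653 to 1.27). Its neighbour chr7:41980279-41980838 had 59, 50, 58 and 59 reads. The 4 inside the gene held 25 to 39 reads in every list. A further 3 regions were called in 1 list each, with 23 to 26 reads. The lowest ratio of any every-day region at the 4 loci was inside GLI3, at chr7:42016691-42017161, with 25 reads on day 7 against 38 on day 0, a ratio of 0.684 (0.396 to 1.16).

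GLI1, the activator that is also a target, is a short gene of 12.1 kb, and its window held 16.9 regions per 100 kb, against 10.3 at PTCH1, 3.36 at GLI2 and 3.19 at GLI3. In the order of the RefSeq table, INHBC and INHBE precede GLI1, and ARHGAP9, MARS1 and DDIT3 follow it. With 18 of the 19 regions in the flanks, most need not belong to GLI1, and the gene nearest to each was not determined. The 5′ end itself had no peak in any list and lay between 2 regions called on every day. The nearest, chr12:57852823-57853613, ended 305 bp upstream and had 174, 162, 154 and 156 reads on days 0, 1, 3 and 7. Inside the gene, from 482 bp to 2.86 kb beyond the 5′ end, the broad region chr12:57854400-57856776 had 189, 181, 174 and 177 reads, the only region within the gene.

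Both were near their day 0 level throughout. The nearest region was at 0.977 of day 0 on day 1 (0.784 to 1.22), 0.835 on day 3 (0.668 to 1.04) and 0.932 on day 7 (0.746 to 1.16). The region inside the gene was at 1.01 (0.815 to 1.24), 0.868 (0.703 to 1.07) and 0.974 (0.789 to 1.20) on days 1, 3 and 7. Their local backgrounds were 9.63 to 11.3 and 8.37 to 9.82 times the genome-wide level. On day 0 the region inside the gene stood above 93.1% of peaks by reads and above 28.6% by fold. A local background of at least 10 times the genome-wide level in some list was seen at 8 of the 61 regions (13.1%), 4 at PTCH1 and 4 in the GLI1 window, against 1.01% of all regions. At 5 times or more there were 13 (21.3%), against 11.4% of all. At GLI2 and GLI3 the highest values were 1.75 and 1.76.

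**Figure D3:**
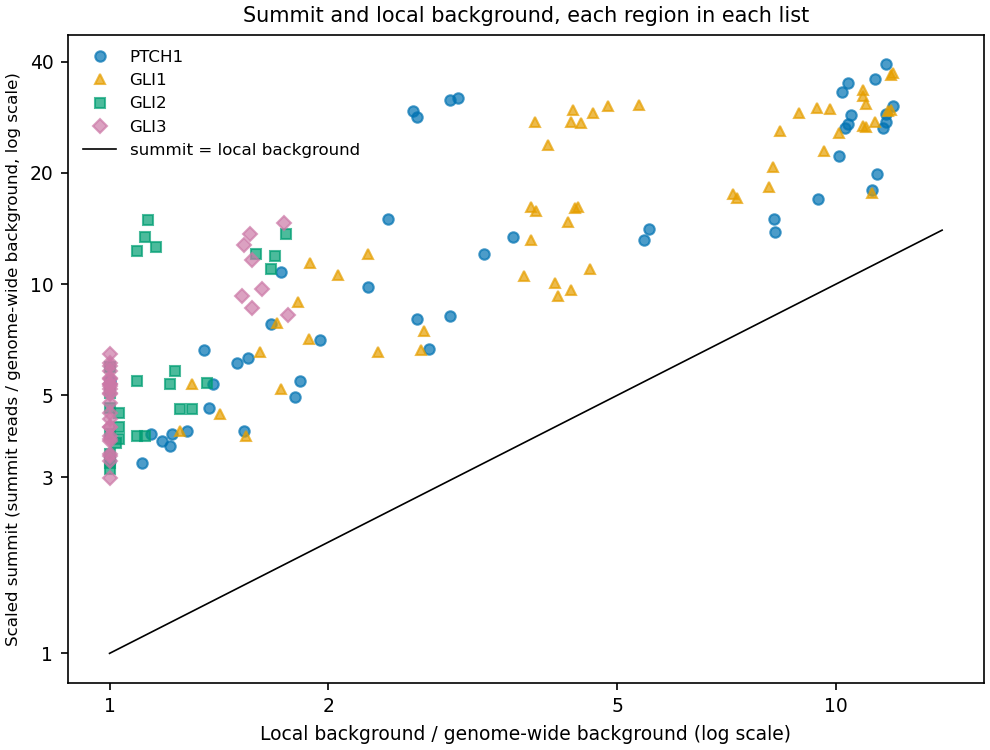
Scaled summit against local background, both divided by the genome-wide background of the list (log scales), with 1 point per region and list. The points at the right, at about 8 to 12 times the genome-wide level, belong to PTCH1 and GLI1, while GLI2 and GLI3 do not pass 1.75 and 1.76, and the line marks a summit equal to its local background.

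The GLI1 window held the only every-day region with a 2-fold higher summit. At chr12:57810123-57810982, 43.4 kb before the 5′ end, the summit had 73, 77 and 48 reads on days 1, 3 and 7, against 33 on day 0. The scaled ratios were 2.32 on day 1 (1.52 to 3.62), 2.20 on day 3 (1.45 to 3.42) and 1.51 on day 7 (0.951 to 2.43). Its local background was 1.72, 2.27, 1.89 and 1.70 times the genome-wide level on days 0, 1, 3 and 7, and by the authors' fold the ratios were 1.75, 1.99 and 1.51, so that it did not reach 2-fold on that scale. The summits of this region lay at 57810416, 57810394, 57810561 and 57810321 on days 0, 1, 3 and 7. That of day 3 was outside the day 0 peak, 57810286-57810555, so the day 3 ratio compares unlike positions. Further downstream, chr12:57897575-57898166 had 64 reads on day 1 against 45 on day 0, a ratio of 1.49 (1.00 to 2.24). The highest summit in the window was at chr12:57913485-57915091, with 234, 225, 218 and 205 reads on days 0, 1, 3 and 7, and its ratios to day 0 were 1.01, 0.879 and 0.911. The highest fold in the window was at chr12:57881257-57882267, with 173, 176, 160 and 167 reads and folds of 5.96, 6.10, 5.74 and 6.86. Its ratios to day 0 were 1.07 (0.861 to 1.32), 0.872 (0.699 to 1.09) and 1.00 (0.807 to 1.25) on days 1, 3 and 7.

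The only gained region in the GLI1 window was chr12:57877176-57877723, 23.5 kb from the 5′ end and 11.1 kb beyond the 3′ end, with 89, 89 and 64 reads on days 1, 3 and 7. Its folds were 3.36, 3.39 and 2.74, at a local background 3.72 to 4.27 times the genome-wide level. At a like background the lowest summit in the day 0 list held 48 reads (5957 peaks compared). Regions called on days 0 and 1 and not later, chr12:57829230-57829488 with 70 and 56 reads and chr12:57885268-57885525 with 61 and 61, had folds of 2.18 to 2.40. First seen on day 3, chr12:57838672-57838944 held 36 reads and was gone on day 7. Another 3 regions were called on day 3 alone with 26 to 30 reads. On day 7 alone, chr12:57915495-57915720 held 108 reads at a fold of 1.57, between a pair of every-day regions at a local background 11.2 times the genome-wide level.

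**Figure D4:**
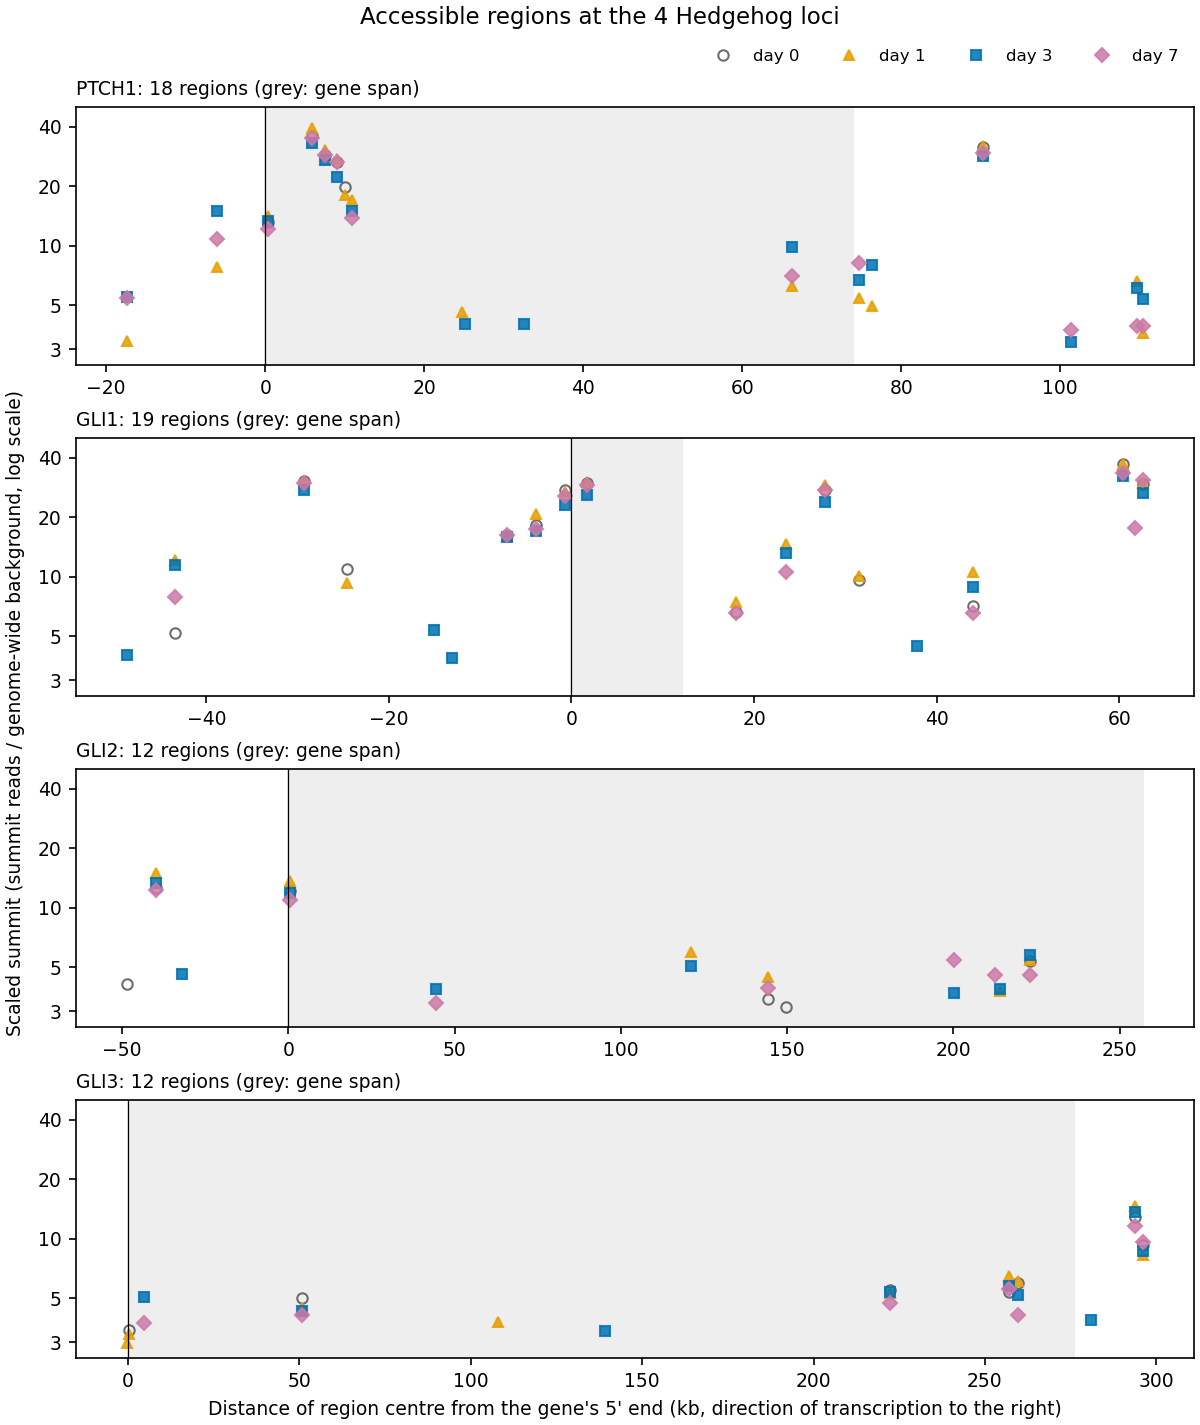
Scaled summit (log scale) of each region in each list against the distance of its centre from the 5′ end of the gene (kb, transcription to the right), for PTCH1, GLI1, GLI2 and GLI3, with the gene span in grey. At PTCH1 the every-day regions overlie each other between days while the gained ones have no open circle, and within 1 kb of the GLI3 5′ end the scaled summits were only 2.98 to 3.47.

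Regions called on every day differed little from day 0 at all 4 genes. Of 24 such regions, 1 (4.17%) was at least 2-fold higher on day 1, against 3.89% of all every-day regions, 1 (4.17%) on day 3, against 4.02%, and 0 on day 7, against 2.22%. None was at least 2-fold lower on any day, where the shares of all were 0.00987%, 0.0707% and 0.0625% on days 1, 3 and 7. The median log2 ratio was 0.04, -0.10 and -0.05, against 0.08, -0.08 and -0.04 over all every-day regions. Of the 72 ratios to day 0, 69 had intervals that included 1, and the other 3 were all in the GLI1 flanks. Among those 3, the day 1 ratio at chr12:57897575-57898166 had a lower bound of 1.00. The ratios spanned 0.836 to 1.10 at PTCH1, 0.856 to 1.18 at GLI2, 0.684 to 1.20 at GLI3 and 0.835 to 2.32 in the GLI1 window. The depth behind a summit set the width of its interval, which ran from 0.910 to 1.32 for the PTCH1 region with 238 reads on day 1 and 228 on day 0, and from 0.510 to 1.53 for the GLI3 region chr7:42225785-42226123 with 27 and 32.

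**Figure D5:**
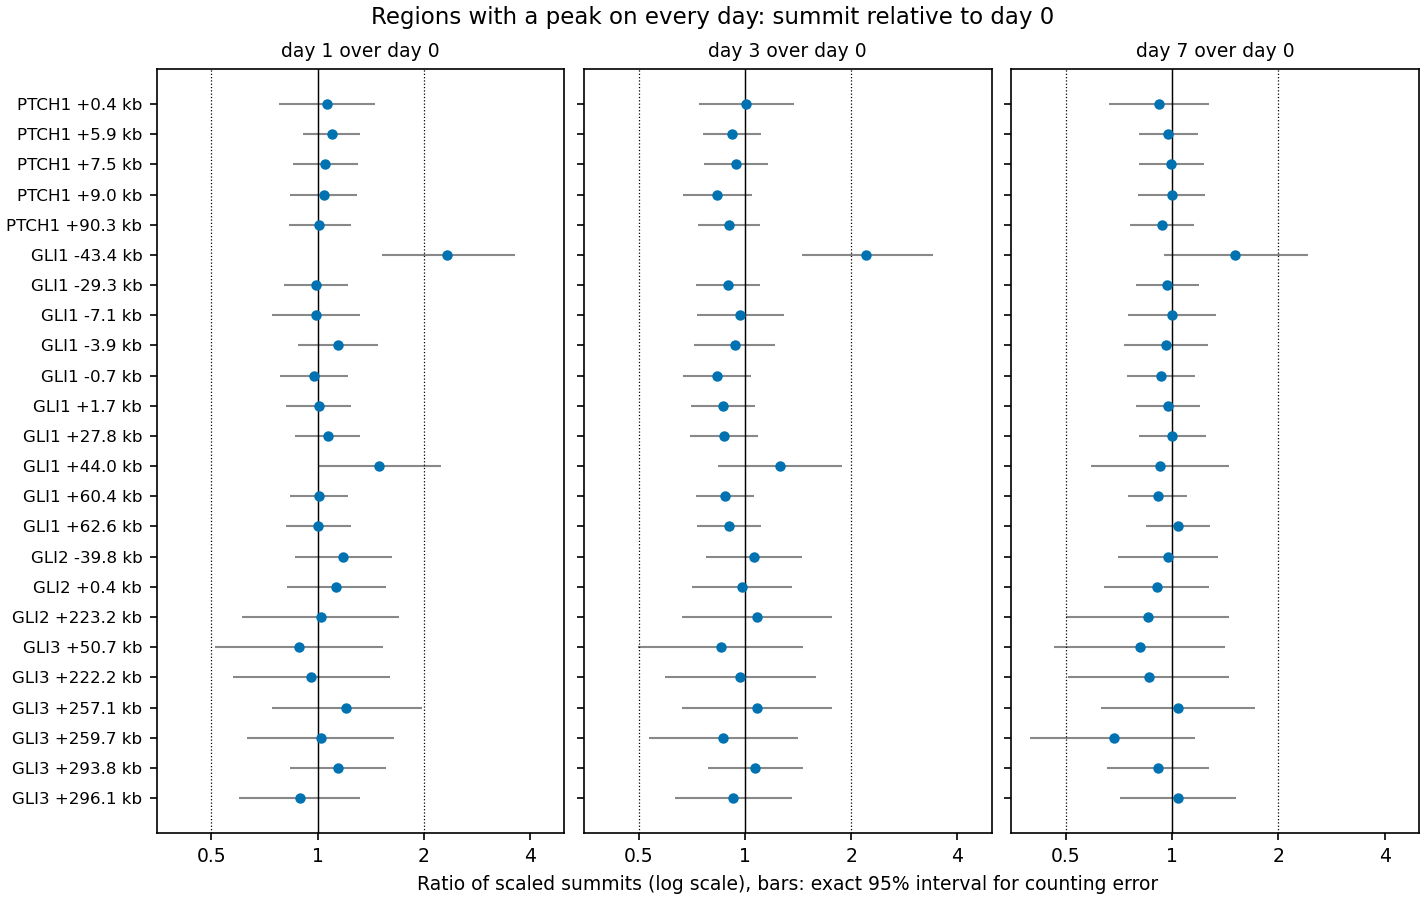
Ratio of the scaled summit on days 1, 3 and 7 to that of day 0 (log scale) for the 24 regions called on every day, ordered by gene and by distance from the 5′ end, with exact 95% intervals for counting error. Dotted lines mark 2-fold, which is passed on day 1 (2.32) and day 3 (2.20) by the region 43.4 kb upstream of GLI1 and by no other.

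The windows have edges at 50 kb, and the nearest regions outside them show what the rule leaves out. At PTCH1 the next regions lay 7.00 and 1.80 kb beyond the 2 edges, at GLI2 4.96 and 1.24 kb, at GLI3 18.2 and 404 kb, and at GLI1 8.58 and 24.1 kb. One region, chr12:57915821-57917176, crossed the far edge of the GLI1 window by 1.13 kb and was counted as inside.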

How the data were processed

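The authors deposited 1 table in narrowPeak layout that joins 4 peak lists. Per the submitters' processing notes, the tools were Bowtie2, deepTools and MACS2 version 2.1.1.20160309, on hg19. No source used here states the read filters, a transposase offset or how the 2 replicates of a day were joined. The deposited fold is a ratio of summit to local background, the deposited score is 10 times the −log10 q, and the deposited −log10 p and q (p-value and q-value) and summit offset in bp come from the authors' caller. All are values per peak and list.

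Reads at each summit were computed from fold and −log10 p, and a whole number of reads matched 100% of peaks within 0.005. The genome-wide background is the value most peaks of a list share. Peaks overlapping by at least 1 bp were merged, each day's value being its highest summit. Ratios have exact conditional binomial 95% intervals and shares exact Clopper-Pearson ones. The ratio intervals cover counting error of reads only, and PCR copies would make them too narrow. The share intervals treat regions as independent draws. Steps were tested on simulated data, using Python 3.11.15, NumPy 2.4.6, pandas 2.3.3, SciPy 1.17.1 and matplotlib 3.10.9.

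The 4 genes and the lists were chosen with earlier results of these data known. Regions named by rule were those nearest each 5′ end, with the highest fold, gained, 2-fold different, on day 0 alone and first seen late; others were named after their values were seen. Tests over the 8 samples were planned and could not be made on peak lists. Other Hedgehog pathway genes were not analysed here, since the gene table at hand is of GRCh38.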

Additional observations from a re-analysis of the deposited data

How the results depend on the processing

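No paired analysis was possible because the deposited peak lists hold 1 value per region and day and no values per replicate, and leaving out each replicate in turn was not run for the same reason. In the stricter settings the gained regions were fewer. Lists of equal length gave 3 of 45 at the 4 loci (6.67%, against 9.68% of all regions) and 2 at PTCH1. They had 5, 11 and 6 regions new on days 1, 3 and 7 and 6 lost on day 1. A −log10 q of at least 5 gave 4 of 53 at the 4 loci (7.55%, against 13.4% of all regions) and 3 at PTCH1, with 5 lost on day 3. No share over all regions was computed for the new and lost counts, or for the other settings on counts. A reciprocal overlap of 50% gave 2 gained regions at the GLI genes and 6 lost on day 1. The gene span alone held 28 regions, of which 2 were gained, 2 at PTCH1 and 0 at the GLI genes, with 6, 10 and 6 new and 1, 4 and 3 lost on days 1, 3 and 7. Windows of 100 kb held 95 regions, with 2 gained at the GLI genes and 23 new on day 7. By the authors' fold in place of the scaled summit, 0 every-day regions were 2-fold higher on day 1 and 0 on day 3. Of 50 ratios recomputed for named regions, 48 stayed inside their interval, and the other 2 were the PTCH1 5′ end by fold, at 1.51 on day 3 and 1.49 on day 7. Those centred on the median of every-day regions were only divided by 1.06, 0.943 or 0.972 on days 1, 3 and 7. Each such shift was smaller than the reach of any of these intervals, so centring could not move a ratio outside. In all, 9 of the 50 lay on the other side of 1 from their value in the report, none of them for a region called 2-fold. For the PTCH1 5′ end on day 7, at 0.916, this held by fold and also by the peak over the 5′ end alone, at 1.10. Centring on the median of every-day regions takes 0.08, -0.08 and -0.04 off the log2 ratios of days 1, 3 and 7 and kept every count within 1.5 times. The setting with the peak over the 5′ end alone was chosen after seeing the data. So was a pair of settings on counts, leaving out regions with a local background of at least 5 times and joining gaps of up to 200 bp, and both kept every count within 1.5 times. The cause of these differences was not tested.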
